A study of Mus musculus with 6 samples.

Results

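Interferons are secreted signals that put cells into an antiviral state. Type I and type III interferons act through receptors whose kinases phosphorylate STAT factors, which join IRF9 and bind a promoter element called the ISRE, while interferon-gamma acts at an element called the GAS. The genes switched on this way encode sensors of foreign RNA and DNA, enzymes that block or degrade viral RNA, membrane proteins that hold virus particles back, and large GTPases that attack pathogen-containing vacuoles. In the mouse, uterine natural killer cells are a known source of interferon-gamma in the pregnant uterus.

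The interferon-inducible gene families were taken from the deposited expression table by gene symbol. The families chosen were Ifi, Ifit, Ifih, Oas, Irf, Gbp, Igtp, Irgm, Iigp and Mx, with STAT genes and the further genes Isg15, Rsad2, Usp18, Bst2, Ddx58, Dhx58, Zbp1 and Xaf1. The rule used names and no measured value, and it took 54 of the 7101 genes of the table. It takes 84 symbols among RefSeq protein-coding genes and transcribed pseudogenes, and the 30 outside the table were not analysed here. RNA-seq compared C57BL/6N mouse embryos at E12.5, with 3 libraries of wild type and 3 libraries of lnc956 knockout. The labels name lnc956 only as the knocked-out gene, give no allele or method for the knockout, and do not say whether replicates are separate embryos or litters. The p-values thus cover the spread among these 6 libraries, which may be technical. The knocked-out gene was not analysed here, and the genotype could not be checked on it.

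The table appears to hold genes that its depositors had selected for a difference between the genotypes. Of the 7101 genes, 3643 had a higher mean in knockout and 3458 a lower one, and 96.4% of the 6487 genes tested passed the adjusted p threshold of 0.05. Counts of members that passed are therefore read only against the background of the whole table. Levels are FPKM, a measure per length of transcript and per mapped fragment of a library, and the depth in reads is unknown. The steps between low values put wild-type replicates 2 and 3 at 0.930 and 1.06 times the depth of replicate 1. They put knockout replicates 2 and 3 at 1.08 and 1.03 times that of their replicate 1. The value of knockout replicate 3 rests on only 12 genes, where the others rest on 32 to 45.

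The libraries labelled as knockout embryo also differed from wild type in markers of the tissue itself. The summed FPKM of 5 neuronal markers lay between 559 and 600 in wild type and between 1.41 and 18.1 in knockout, and that of 4 skeletal muscle markers between 335 and 549 and between 4.51 and 7.76. The sum of 10 markers of uterine natural killer cells was 4.05 to 6.502 in wild type and 7593 to 18962 in knockout, and that of 9 decidual stroma markers 51.9 to 56.5 and 7067 to 8035. Trophoblast markers, 9 in the table, summed to 3.63 to 5.24 in wild type and 12841 to 32570 in knockout. The 6 erythroid markers in the table fell as well, summing to 20849 to 29017 in wild type and 201 to 816 in knockout. Of 5 endothelial markers 3 rose and 2 did not pass, and markers of T and B cells were not analysed here. Of all tested genes, 47.2% were higher and 49.2% lower. The knockout libraries were thus low in neuronal, skeletal muscle and erythroid markers and high in placental and uterine ones. In bulk tissue, fewer cells of a type and less RNA per cell cannot be told apart, and the part of these differences in the results on interferon-inducible genes was not tested.

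Of the 54 members, 52 had a higher mean in knockout, and 2 had a lower one, among them Irf2bp1. No member's wild-type and knockout values overlapped. Such a separation toward knockout was also found for 47.1% of the genes of the table, and toward wild type for 48.5%. A total of 51 members passed the filter on low values, and in limma 49 of them were higher and 2 lower at an adjusted p under 0.05, where 47.2% and 49.2% of all tested genes were. Of the tested members, 32 passed the filter through the knockout libraries alone, so they had to differ. Nothing is read from the count of calls, and no p-value is printed for these members, which were under 1 FPKM in every wild-type library. Ifit1bl1, Ifit1bl2 and Ifitm10 were below the filter.

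The 54 members summed to 135, 110 and 117 FPKM in wild-type replicates 1 to 3 and to 1004, 1268 and 1236 FPKM in the knockout replicates, a ratio of the group means of 9.67. In wild type, 35 members were under 1 FPKM in all 3 libraries. In knockout, 27 members had a mean over 10 FPKM, and 5 had a mean over 50 FPKM, namely Bst2, Ifitm3, Isg15, Irf7 and Ifi30. The median log2 change of the 51 tested members was 2.66, with a range from -2.11 to 5.73, where the median of all 6487 tested genes was 0.38. After trimmed-mean rescaling the medians were 2.88 and 0.65, and after quantile normalization 2.75 and -0.042. Log2 changes are knockout minus wild type on log2(FPKM + 1), which understates the change of genes with low values.

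**Figure D1:**
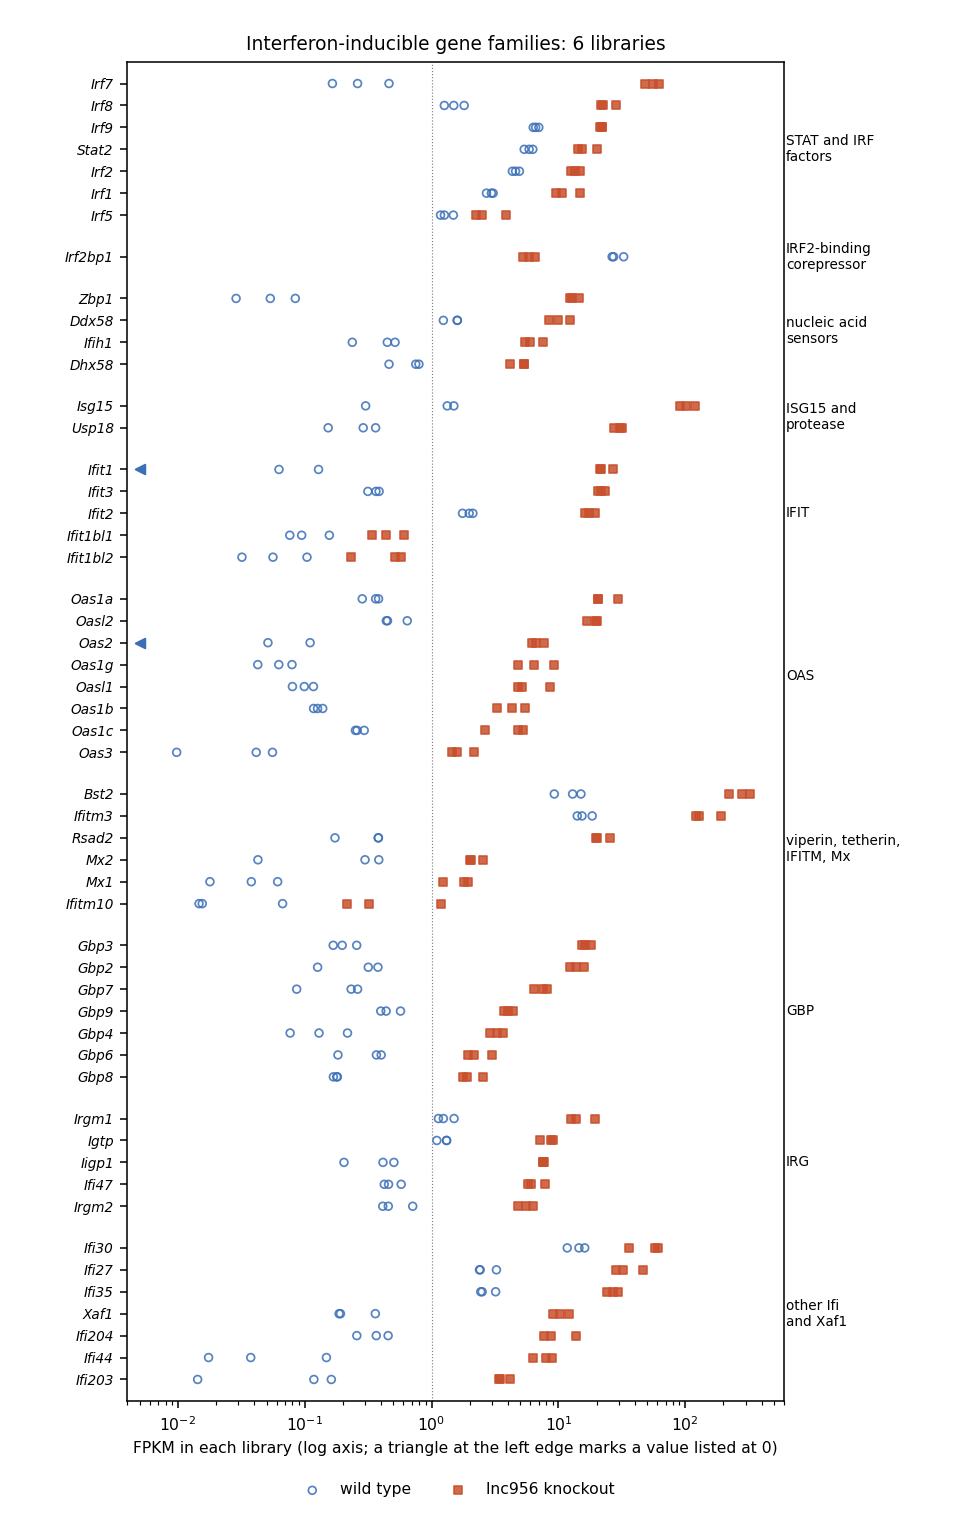
FPKM of 52 of the 54 members in each of the 6 libraries, on a log axis, with wild-type libraries as open symbols and knockout libraries as filled symbols, grouped by role; a triangle at the left edge marks a value listed at 0. The knockout symbols lie to the right of the wild-type symbols for 51 of these members and to the left for Irf2bp1.

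**Figure D2:**
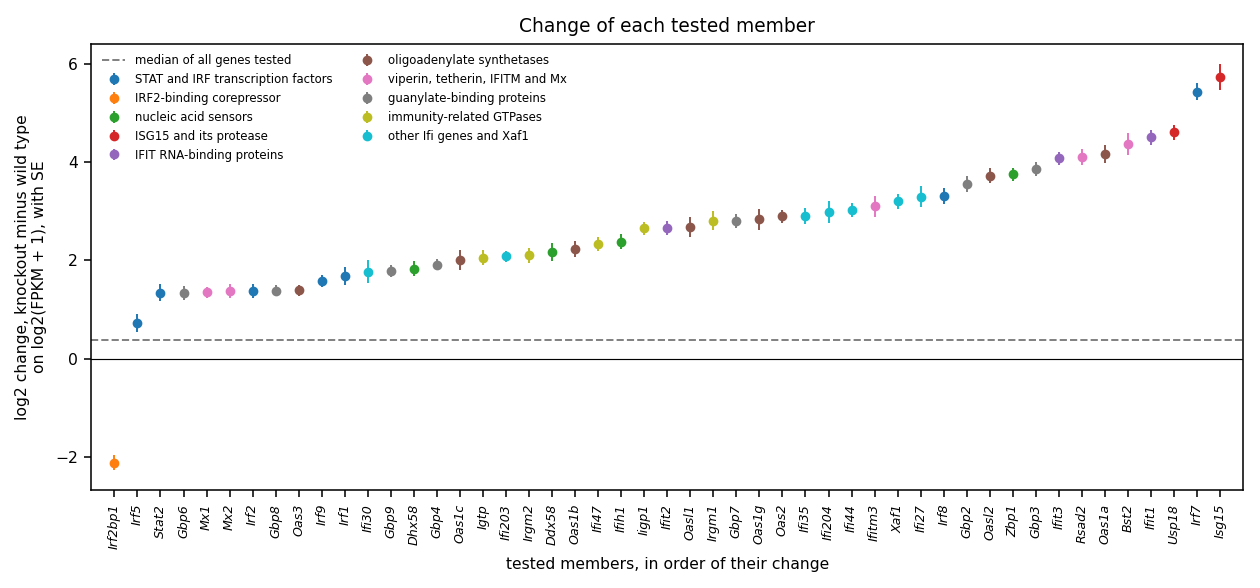
Log2 change of 49 of the 51 tested members on the log2(FPKM + 1) scale, in order, coloured by role, with the standard error as bars; the dashed line is the median of all 6487 tested genes, 0.38. The changes run from -2.11 for Irf2bp1 to 5.73 for Isg15.

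Promoter sequence is shown first for members with large changes that hold a match to the ISRE. This is the element that defines much of the interferon response. RefSeq promoters of build GRCm38.p6, each running from 250 bases before to 50 bases after an annotated start, were at hand for 38 of the 54 members. The core of the ISRE was searched on both strands as GAAANNGAAA, where N is any base. A match on the other strand is shown as its reverse complement. Isg15, which encodes a ubiquitin-like protein that is joined to other proteins, had the largest change of the tested members on the log2(FPKM + 1) scale. That order depends on the pseudocount, since the ratio of its group means was 99.3 and that of Ifit1 366. Its promoter, chr4:156200769-156201068 on the minus strand, is given whole, with the overlapping matches in capitals:
Isg15: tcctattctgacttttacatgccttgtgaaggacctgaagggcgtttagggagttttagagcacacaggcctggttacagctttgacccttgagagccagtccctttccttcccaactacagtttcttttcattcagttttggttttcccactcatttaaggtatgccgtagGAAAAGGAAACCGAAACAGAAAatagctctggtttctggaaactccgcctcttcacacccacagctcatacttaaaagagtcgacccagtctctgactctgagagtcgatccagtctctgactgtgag

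For the other effector genes, a window around the match is given in the direction of transcription, with all ISRE core matches in capitals. Ifit1 (chr19:34640769-34640848, plus strand) and Ifit3 (chr19:34583372-34583451, plus strand) encode proteins that bind viral RNA, and each window holds a pair of separate matches. Rsad2 (chr12:26456528-26456607, minus strand) encodes viperin and Bst2 (chr8:71537552-71537631, minus strand) encodes tetherin, which holds budding virus on the cell surface. Oas1a (chr5:120907495-120907574, minus strand) encodes an oligoadenylate synthetase, and Gbp2 (chr3:142620569-142620648, plus strand) and Gbp3 (chr3:142559970-142560049, plus strand) encode guanylate-binding proteins. Stat2 (chr10:128270248-128270320, plus strand) is shown as a regulator with a match far from its start.
Ifit1: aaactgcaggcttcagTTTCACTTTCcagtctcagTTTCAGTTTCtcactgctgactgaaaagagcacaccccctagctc
Ifit3: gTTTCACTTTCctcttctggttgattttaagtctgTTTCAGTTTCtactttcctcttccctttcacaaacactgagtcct
Rsad2: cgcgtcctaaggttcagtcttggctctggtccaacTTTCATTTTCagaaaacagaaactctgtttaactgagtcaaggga
Bst2: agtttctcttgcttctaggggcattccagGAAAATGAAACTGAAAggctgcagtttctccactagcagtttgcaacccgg
Oas1a: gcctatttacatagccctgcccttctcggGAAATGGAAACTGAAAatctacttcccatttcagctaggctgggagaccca
Gbp2: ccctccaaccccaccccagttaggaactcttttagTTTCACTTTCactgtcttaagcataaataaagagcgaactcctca
Gbp3: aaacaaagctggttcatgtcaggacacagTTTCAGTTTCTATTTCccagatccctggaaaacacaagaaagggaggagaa
Stat2: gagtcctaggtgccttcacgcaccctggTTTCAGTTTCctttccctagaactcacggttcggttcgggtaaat

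The ISRE core was found in the promoters of 23 of the 38 members, 60.5%. It was found in 1079 of all 27025 genes of the promoter table, 3.99%. Among the other genes of the expression table, 4.78% of those with a higher knockout mean and 3.18% of those with a lower one held it. The share in members was above that in the other genes with a higher knockout mean. It was not tested, and several members share sequence by descent and are not independent. The families were chosen as interferon-inducible, so a high share was to be expected whatever the knockout did. The 36 matches had a median centre 56.5 bases before the start, and 29 of them had their centre within the 150 bases before it. The matches of Ifit1 and Ifit1bl2 are the same bases of the genome read on opposite strands. They count for both members in the share and among the 36. Irf7 and Oasl2, also among the 12 members with the largest changes, had an entry and no match and are not shown. Members with an entry and no match were Ifi30, Ifi35, Ifi44, Ifi47, Ifit2, Ifitm10, Irf1, Irf5, Irf7, Irf8, Irf9, Oasl1, Oasl2, Xaf1 and Irf2bp1. A match is a description of letters, and an absence says only that these letters are not in this window.

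The core of the GAS, an element of the interferon-gamma response, was searched as TTCNNNGAA, which reads the same on both strands. It was found in 12 of the 38 members, 31.6%, against 9.55% of all genes of the promoter table and 8.74% and 7.21% of the other table genes with a higher and a lower knockout mean. In all, 7 members held both cores and 10 held neither. Irf1 (chr11:53769889-53769967, plus strand) and Irf8 (chr8:120736170-120736248, plus strand) are shown because they held GAS matches, in capitals, and no ISRE match.
Irf1: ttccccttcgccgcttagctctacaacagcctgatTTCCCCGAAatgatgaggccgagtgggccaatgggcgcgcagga
Irf8: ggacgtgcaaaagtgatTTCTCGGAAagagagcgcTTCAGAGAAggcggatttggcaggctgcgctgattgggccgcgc

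**Figure D3:**
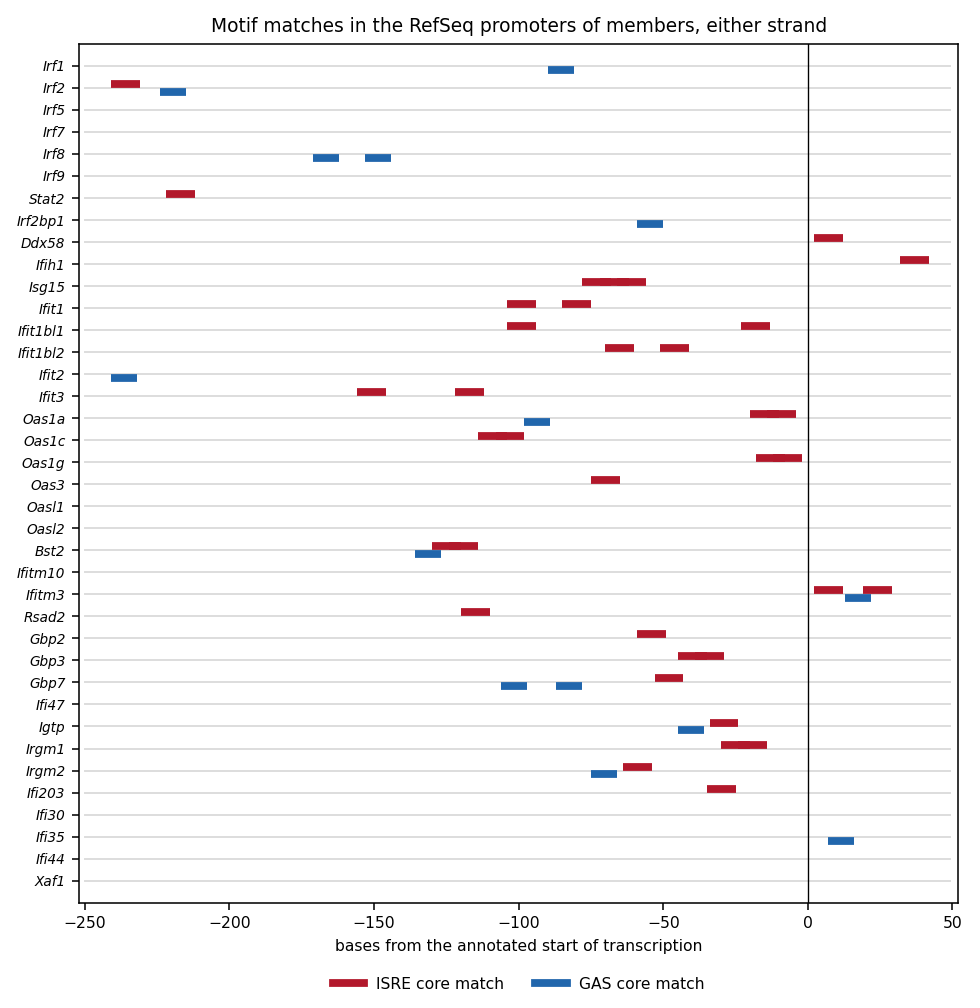
Position of ISRE core and GAS core matches, on either strand, in the RefSeq promoters of members, in bases from the annotated start of transcription. Most ISRE core matches, 29 of 36, have their centre within the 150 bases before the start, with the sites shared by Ifit1 and Ifit1bl2 counted for each.

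The regulators of the response come first. Stat2, which acts in the response to type I and type III interferons, was at 6.28, 5.37 and 5.87 FPKM in wild-type replicates 1 to 3 and at 15.2, 14.1 and 20.001 FPKM in knockout. Knockout replicate 3 stood highest and all knockout libraries lay above wild type, with a log2 change of 1.34 (SE 0.17, limma adjusted p = 0.0001565). Irf9, which brings STAT factors to the ISRE, was at 7.001, 6.62 and 6.33 FPKM in wild type and 21.2, 22.1 and 22.2 FPKM in knockout, a log2 change of 1.58 (SE 0.13). Both were detected in every wild-type library.

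The largest change among the regulators was that of Irf7, a factor that is itself induced by interferon and drives further interferon genes. Irf7 was at 0.462, 0.165 and 0.261 FPKM in wild type and at 48.0, 62.0 and 55.3 FPKM in knockout, a log2 change of 5.43 (SE 0.17). It passed the filter through the knockout libraries alone. Irf8, a factor of macrophage and dendritic cell development, was at 1.81, 1.26 and 1.496 FPKM in wild type and 22.5, 28.3 and 21.5 FPKM in knockout, a log2 change of 3.31 (SE 0.17). Both were under 2 FPKM in every wild-type library. Because Irf8 is also a gene of macrophages, their markers are given beside it. Among 9 tested macrophage markers, 6 were higher, Cx3cr1 was lower and 2 did not pass, where 47.2% of all tested genes were higher and 49.2% lower. Their summed FPKM was 58.5, 42.8 and 39.5 in wild type and 477, 629 and 390 in knockout, and knockout replicate 2 was highest in both Irf8 and this sum. The part of macrophage RNA in the Irf8 values was not tested.

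Irf1, Irf2 and Irf5 differed less. Irf1, an early interferon-gamma target, was at 2.96, 2.71 and 3.06 FPKM in wild type and 10.6, 14.9 and 9.60 FPKM in knockout, a log2 change of 1.68 (SE 0.19). Irf2, which binds the same elements and can repress them, was at 4.59, 4.33 and 4.93 FPKM in wild type and 13.6, 14.7 and 12.6 FPKM in knockout, a log2 change of 1.38 (SE 0.14). Irf5, a factor downstream of Toll-like receptors, had the smallest rise of the tested members. It was at 1.49, 1.26 and 1.18 FPKM in wild type and 2.503, 3.86 and 2.25 FPKM in knockout, a log2 change of 0.73 (SE 0.18, limma adjusted p = 0.00499). The median change of all tested genes was 0.38.

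Irf2bp1 fell. It was taken for its symbol and is not known as an interferon-induced effector. Irf2bp1, whose protein binds IRF2 and acts as a corepressor, was at 32.7, 27.2 and 26.5 FPKM in wild type and 5.22, 6.52 and 5.89 FPKM in knockout, a log2 change of -2.11 (SE 0.15, limma adjusted p = 8.381e-06). Irf2bp1 had the highest wild-type mean of all members.

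The nucleic acid sensors Ddx58, Ifih1, Dhx58 and Zbp1 all rose, where 47.2% of all tested genes were higher. Ifih1, Dhx58 and Zbp1 were under 1 FPKM in every wild-type library, so they passed the filter through knockout alone and had to differ. Zbp1, a sensor of nucleic acids in the left-handed Z form that can trigger cell death, was at 0.0535, 0.0288 and 0.0843 FPKM in wild type and 12.4, 14.5 and 12.8 FPKM in knockout. It went from values near 0 to a narrow range in knockout, with a log2 change of 3.75 (SE 0.13), and passed the filter through knockout alone. Ddx58, which encodes the RNA sensor RIG-I, had means of 1.48 ± 0.206 and 10.2 ± 2.02 FPKM (SD, n = 3 each). Ifih1, a sensor of long double-stranded RNA, had means of 0.400 ± 0.145 and 6.33 ± 1.10 FPKM, and Dhx58, a related helicase that tunes both, 0.669 ± 0.181 and 4.94 ± 0.686 FPKM. The log2 changes of the 4 sensors ran from 1.83 to 3.75.

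Isg15 was at 1.498, 0.302 and 1.33 FPKM in wild type and 91.0, 101 and 118 FPKM in knockout, a log2 change of 5.73 (SE 0.27, limma adjusted p = 1.373e-06). Usp18, the protease that removes ISG15 from its targets and dampens receptor signalling, was at 0.153, 0.362 and 0.289 FPKM in wild type and 27.2, 31.6 and 30.7 FPKM in knockout. Its log2 change was 4.60 (SE 0.15). The modifier and its protease thus rose together, from a summed 0.664 to 1.65 FPKM in wild type to 118 to 149 FPKM in knockout.

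Among the IFIT genes, Ifit1 was listed at 0, 0.0627 and 0.128 FPKM in wild type and at 21.5, 21.3 and 27.1 FPKM in knockout, a log2 change of 4.51 (SE 0.16). Ifit3 was at 0.386, 0.315 and 0.364 FPKM in wild type and 20.7, 23.2 and 21.7 FPKM in knockout, a log2 change of 4.08 (SE 0.13). IFIT1 and IFIT3 act together in a complex on viral RNA in human cells, and here the knockout levels of their genes were close. Ifit2 started higher, with means of 1.95 ± 0.183 and 17.6 ± 1.65 FPKM (SD, n = 3 each) and a log2 change of 2.66. The neighbouring copies Ifit1bl1 and Ifit1bl2 reached no more than 0.607 and 0.573 FPKM in any library. The promoter windows of Ifit1 and Ifit1bl2 shared 61 bases of the genome, read on opposite strands. The transcripts of these genes were not compared. Reads of any stretches they share may have been split in counting, so the lower values are uncertain.

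All 8 oligoadenylate synthetase genes rose, where 47.2% of all tested genes were higher. Each was under 1 FPKM in every wild-type library, so these genes passed the filter through knockout alone and had to differ. Their enzymes make a short messenger that activates RNase L, which cuts RNA, except that some mouse family members have lost this activity. Oas1a was at 0.284, 0.382 and 0.362 FPKM in wild type and 20.5, 20.5 and 29.3 FPKM in knockout, a log2 change of 4.17 (SE 0.18). Oasl2 was at 0.643, 0.449 and 0.440 FPKM in wild type and 16.8, 19.9 and 20.2 FPKM in knockout, a log2 change of 3.72 (SE 0.15). The lowest of the family in knockout was Oas3, at 1.44, 2.18 and 1.58 FPKM, with a log2 change of 1.39. Oas2 was listed at 0 in wild-type replicate 3 and had a knockout mean of 6.86 ± 0.802 FPKM. Oas1b, which RefSeq lists as a transcribed pseudogene, had a knockout mean of 4.37 ± 1.10 FPKM. The promoter windows of Oas1a and Oas1g were identical at 79 of 80 bases, and their transcripts were not compared. Reads of any stretches they share may have been split between them in counting, so the levels of single Oas1 genes are uncertain.

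Of the membrane and membrane-linked antiviral proteins, Bst2 had the highest knockout level of all members. It was at 15.0, 9.27 and 12.9 FPKM in wild type and 220, 281 and 322 FPKM in knockout, a log2 change of 4.37 (SE 0.22). Ifitm3, which blocks virus entry, was at 18.5, 15.3 and 14.1 FPKM in wild type and 121, 190 and 129 FPKM in knockout, a log2 change of 3.10 (SE 0.21). Both were already expressed in wild type, so their ratios of means, 22.1 and 9.17, rest on measurable levels in both groups. Rsad2 was at 0.380, 0.380 and 0.173 FPKM in wild type and 20.04, 19.6 and 25.4 FPKM in knockout, a log2 change of 4.11 (SE 0.17). The Mx genes, dynamin-like antiviral GTPases that RefSeq lists as transcribed pseudogenes in the reference strain, were low, with knockout means of 1.66 ± 0.374 FPKM for Mx1 and 2.21 ± 0.309 FPKM for Mx2. Ifitm10 was at 0.0156, 0.0669 and 0.0147 FPKM in wild type and 1.18, 0.215 and 0.323 FPKM in knockout, and knockout replicate 1 made up most of that sum.

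The guanylate-binding proteins and the immunity-related GTPases are classic interferon-gamma targets that act on vacuoles holding bacteria or parasites. All 7 Gbp genes rose, where 47.2% of all tested genes were higher. Each was under 1 FPKM in every wild-type library, passed the filter through knockout alone and had to differ. Gbp3 and Gbp2 were highest in knockout. Gbp3 was at 0.197, 0.257 and 0.168 FPKM in wild type and 15.4, 18.03 and 16.2 FPKM in knockout, a log2 change of 3.86 (SE 0.14). Gbp2 was at 0.126, 0.317 and 0.378 FPKM in wild type and 13.7, 15.99 and 12.4 FPKM in knockout, a log2 change of 3.56 (SE 0.16). The knockout means of the other 5 Gbp genes ran from 2.08 FPKM for Gbp8 to 7.35 FPKM for Gbp7. Gbp2, Gbp3 and Gbp7 lie on chromosome 3 and Gbp4, Gbp6, Gbp8 and Gbp9 on chromosome 5, and the 3 genes of chromosome 3 had the larger changes. The models of Gbp4, Gbp8 and Gbp9 overlap in the annotation, so reads may be shared between them and their single values are uncertain.

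All 5 immunity-related GTPase genes rose, where 47.2% of all tested genes were higher. Among them was Ifi47, which encodes such a GTPase in spite of its name. Ifi47, Irgm2 and Iigp1 passed the filter through knockout alone. Irgm1, a regulator of the other GTPases, had means of 1.29 ± 0.192 and 15.2 ± 3.66 FPKM (SD, n = 3 each), a log2 change of 2.80. Iigp1 was the steadiest member in knockout, at 7.60, 7.53 and 7.73 FPKM, and had a log2 change of 2.66. Igtp and Irgm2 had ratios of the knockout to the wild-type mean of 6.72 and 10.6, and their models overlap in the annotation, so their separate levels are uncertain. Their promoter windows were identical at 78 of 80 bases. In both promoters a GAS core match was also found. That of Igtp, at -45 to -37 from the start, is in lower case in the window below. Irgm1 had a promoter entry and no GAS match. The windows of Irgm1 (chr11:48871400-48871479, minus strand) and Igtp (chr11:58199487-58199566, plus strand), with the ISRE core in capitals, are shown because these GTPases are known as interferon-gamma targets and their promoters hold this core:
Irgm1: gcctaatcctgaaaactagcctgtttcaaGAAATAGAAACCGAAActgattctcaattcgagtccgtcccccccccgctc
Igtp: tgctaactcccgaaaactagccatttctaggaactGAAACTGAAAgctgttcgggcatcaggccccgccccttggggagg

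The other 7 members, 6 Ifi genes and Xaf1, all rose, where 47.2% of all tested genes were higher. Ifi203, Ifi204, Ifi44 and Xaf1 were under 1 FPKM in every wild-type library, passed the filter through knockout alone and had to differ. Ifi30, a lysosomal thiol reductase that unfolds antigens, was already at a mean of 14.1 ± 2.21 FPKM in wild type (SD, n = 3) and reached 51.5 ± 13.8 FPKM in knockout, a ratio of 3.65. Ifi27, a small mitochondrial and membrane protein, went from 2.68 ± 0.488 to 35.6 ± 9.38 FPKM, and Ifi35 from 2.71 ± 0.419 to 26.8 ± 2.62 FPKM. Ifi204 and Ifi203, of a family of DNA-binding proteins on chromosome 1, reached 10.1 ± 3.32 and 3.65 ± 0.425 FPKM. Xaf1, a binder of the apoptosis inhibitor XIAP, went from 0.246 ± 0.0989 to 10.5 ± 1.49 FPKM. Ifi44 went from 0.0678 ± 0.0705 to 7.74 ± 1.31 FPKM.

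The spread of the members among the knockout libraries was compared with that of other genes higher in knockout. The median coefficient of variation over the 3 knockout libraries was 14.2% for the 49 raised members. It was 21.7% for 2855 other raised genes of the table in the same range of knockout means. For the raised genes of the pathway lists it was 16.7% for 10 JAK-STAT genes and 17.1% for 11 sensing genes. It was 19.4% for 49 other interferon-stimulated genes and 35.6% for 4 receptor genes. Among raised markers it was 26.8% for 3 endothelial, 27.7% for 9 decidual stroma and 37.8% for 10 uterine natural killer markers. For 6 macrophage and 7 trophoblast markers it was 40.4% and 69.3%. The median ratio of the highest to the lowest knockout library was 1.31 for members and 1.52 for the other genes. The difference in spread was not tested.

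None of the 49 tested members that rose was highest in knockout replicate 1, where 29.0% of the other raised genes were. Replicate 2 was the highest for 57.1% of members and 52.4% of the other genes, and replicate 3 for 42.9% and 18.6%. These shares were not tested. The families differed in this. Of the guanylate-binding proteins 6 of 7 were highest in replicate 2, as were 6 of 7 of the other Ifi genes and Xaf1. Of the viperin, tetherin, IFITM and Mx genes 4 of 5 were highest in replicate 3, and so were 5 of 8 oligoadenylate synthetases. The summed FPKM of the natural killer markers was 7593, 18962 and 12328 in knockout replicates 1 to 3, so these too were highest in replicate 2, as 8 of the 10 markers were singly. Replicate 2 was also highest for 5 of 6 raised macrophage markers, 3 of 3 endothelial, 6 of 9 decidual stroma and 1 of 7 trophoblast markers. The same held for 34 of the 49 raised genes among the other interferon-stimulated genes. The part of natural killer or other cells in the profile of the Gbp and Ifi genes was not tested. The ISRE core was in 10 of 19 promoters of members highest in replicate 2 and in 11 of 15 of members highest in replicate 3. The GAS core was in 6 of the 19 and 5 of the 15. These counts were not tested, and members with shared sequence are not independent.

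**Figure D4:**
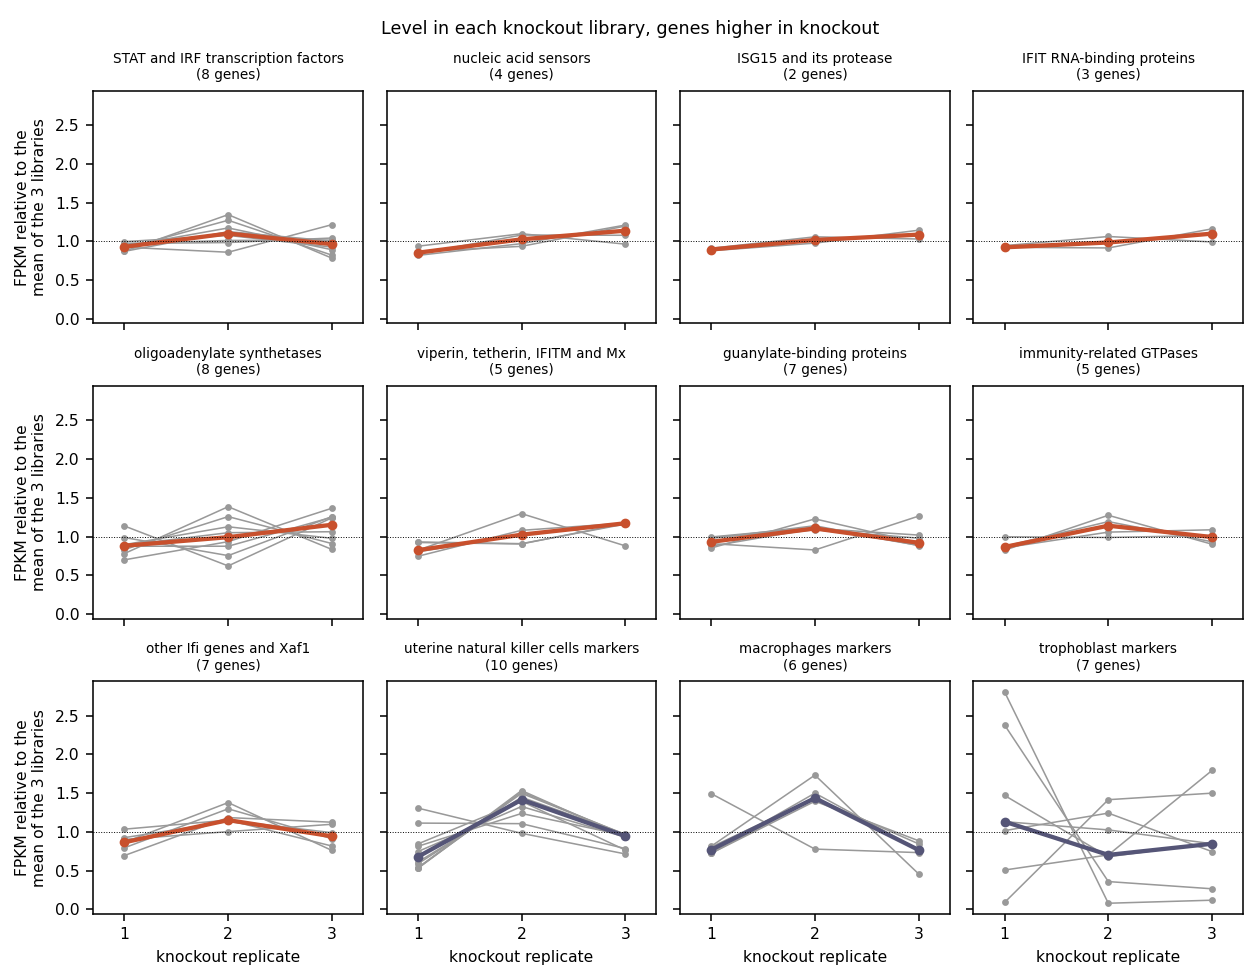
Level of each gene higher in knockout in the 3 knockout libraries, relative to its mean over them, by role of the members and for marker lists; thin lines are genes and thick lines their median, and replicates have no order. The medians of the natural killer and macrophage markers are highest in replicate 2, and the medians of the member roles stay between 0.8 and 1.2.

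Genes of the pathway outside the chosen families were counted from lists of other pathway genes. Of 18 interferon and receptor genes 4 were in the table, all receptor chains, and no interferon gene was analysed here. Ifnlr1, the specific chain of the type III receptor, was at 0.554, 0.556 and 0.430 FPKM in wild type and 2.06, 2.06 and 4.55 FPKM in knockout, a log2 change of 1.30 (SE 0.24). Its partner chain Il10rb had means of 4.11 ± 0.430 and 11.01 ± 3.44 FPKM (SD, n = 3 each), a log2 change of 1.19. The type I chain Ifnar2 had a log2 change of 1.27 and the interferon-gamma chain Ifngr1 one of 0.73. All 4 rose, with adjusted p from 0.0021 to 0.0037 in limma for Il10rb, Ifngr1 and Ifnar2, while Ifnlr1 passed the filter through knockout alone. Of all tested genes, 47.2% were higher.

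Of 21 JAK-STAT signalling genes 13 were in the table and tested, of which 10 rose, 2 fell and Stat5a did not pass, with a median log2 change of 0.88. Of all tested genes, 47.2% were higher and 49.2% lower. Stat3 and Stat6, which carry interleukin signals, had the smallest p among those that rose, with log2 changes of 2.07 and 2.35. The genes that fell were Socs2, an inhibitor of growth hormone signalling, at -1.40, and Stat5b at -1.35. Of 27 genes of nucleic acid sensing 14 were in the table and 13 tested, of which 11 rose and 2 fell, beside the same 47.2% and 49.2% of all tested genes. Samhd1, which degrades nucleotides, went from 14.5 ± 1.38 to 92.1 ± 11.6 FPKM, and Tlr4 from 0.256 ± 0.0536 to 10.7 ± 3.14 FPKM. Tlr4 was on the list although it encodes a receptor of bacterial lipopolysaccharide, and it passed the filter through knockout alone. Dtx4 and Rnaseh2c, an RNase H2 subunit, fell, with log2 changes of -2.72 and -2.39.

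The last list held interferon-stimulated genes outside the families. Of 74 on it 52 were in the table and tested, of which 49 rose, 2 fell and Fas did not pass, where 47.2% of all tested genes were higher and 49.2% lower. Their median log2 change was 2.46, near the 2.66 of the members. Isg20, an RNA exonuclease, was at 0.936, 0.626 and 0.724 FPKM in wild type and 166, 98.9 and 121 FPKM in knockout, a log2 change of 6.17 (SE 0.21). Rtp4 rose by 4.06 on the log2 scale. Like other genes of this list, Isg20 and Rtp4 were under 1 FPKM in every wild-type library. Such genes passed the filter through knockout alone and had to differ, so nothing is read from the count. Vcam1, an adhesion molecule, and Slfn9, of the schlafen family, fell, with log2 changes of -2.96 and -1.03. Isg20 was highest in knockout replicate 1, as were 8 of the 49 raised genes of this list.

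**Figure D5:**
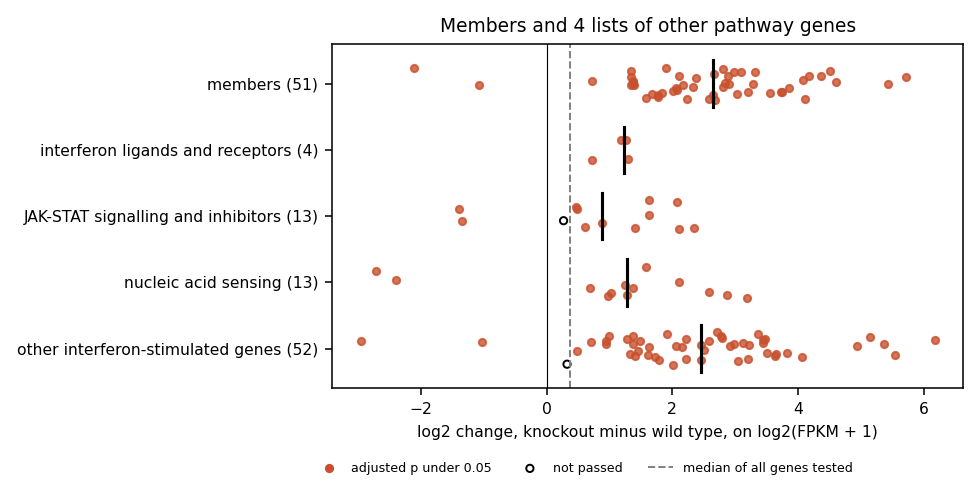
Log2 change of the tested members and of the tested genes of 4 lists of other pathway genes, on the log2(FPKM + 1) scale, with genes that passed the adjusted p threshold of 0.05 filled; the dashed line is the median of all tested genes, 0.38. The members and the other interferon-stimulated genes have medians of 2.66 and 2.46, and the receptor, JAK-STAT and sensing lists medians of 1.23, 0.88 and 1.28.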

How the data were processed

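Total RNA of 6 libraries was sequenced. The submitters' processing notes name the spliced aligner TopHat2 2.0.8 and the quantifier Cufflinks 2.1.1, with the builds mm9 and mm10 and no role for either. The deposited table holds 1 value per gene and library, taken as FPKM made by the authors: the header names no unit, and Cufflinks is the only quantifier named. FPKM shares 1 total per library, so very abundant transcripts lower all others. Without read depth, counting intervals are not given.

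Genes reaching 1 FPKM in 3 or more of the 6 libraries were tested as log2(FPKM + 1) in limma 3.58.1 under R 4.3.3 (lmFit and trended, robust eBayes). Tests were two-sided, with no term besides genotype, and Benjamini-Hochberg adjustment ran over all 6487 genes tested. The filter left out 614. The test was checked on simulated data. An exact test of 3 against 3 cannot reach 0.05, so none is given. Adjusted p-values cover only the genes the depositors kept. The trimmed-mean rescaling trimmed 30% of log ratios and 5% of levels at each end. Groups and replicate numbers came from the labels.

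Named in full were the 12 members with the largest change in each direction that passed, did not overlap and had a mean of at least 5 FPKM in a group, Irf and Ifitm genes, Stat2, Isg15 and Zbp1, and in each other list the 2 smallest p in each direction. Ifngr1, Ifnar2, Cx3cr1, Stat5a, Fas and the other members with values were named after their values were seen. Of the 54 members, 2 are counted in totals and not reported singly here. The members and lists were chosen with earlier results of these data known. Alternatives were other pseudocounts (0.1 and 5), filters, scalings, limma settings, a threshold of 0.01, a replicate block and leaving out each library.

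Promoters are those of RefSeq on GRCm38.p6, matched by symbol and read along the transcript. Gene chromosomes and model overlaps are of the annotation of that build, and no coordinate was converted. Members with no promoter entry used here included Gbp4, Gbp6, Gbp8, Gbp9, Ifi27, Ifi204, Oas1b, Oas2, Mx1, Mx2, Dhx58, Usp18, Iigp1 and Zbp1.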

Additional observations from a re-analysis of the deposited data

How the results depend on the processing

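All 742 values of the 51 tested members under the alternatives kept their direction and their side of the adjusted p threshold in limma. This says little of stability, since 32 of these members passed the filter through knockout alone and 96.4% of all tested genes were called. Requiring a mean of 5 FPKM over the 6 libraries tested fewer genes: 27 members were then higher and 1 lower, 32 and 1 of the other interferon-stimulated genes, and 1801 genes of the whole table were lower. After quantile normalization 1 other interferon-stimulated gene was lower. The members' median log2 change was 3.72 with a pseudocount of 0.1, 1.23 with 5, 2.49 without a filter, 3.25 with the mean of 5 FPKM and 2.88 after trimmed-mean rescaling. The median of all genes tested, 0.38, turned to -0.042 after quantile normalization. It was 0.212 without knockout replicate 1, 0.245 without knockout replicate 2, 0.175 with a pseudocount of 5, 0.608 with the mean of 5 FPKM and 0.652 after trimmed-mean rescaling. The cause was not tested. Same-numbered libraries correlated at -0.06, 0.08 and 0.11 in their deviations from the group means, and differently numbered ones at -0.13 to 0.06. With so few libraries these values cannot settle whether the numbers pair them. With a replicate block 49 members were higher and 2 lower. The 3 libraries a group and the unknown depth limit what can be said of members listed near 0.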
